A study of Mus musculus with 13 samples.

Results

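Interferon-stimulated genes (ISGs) were followed by RNA sequencing of mouse brain after endothelial loss of Pdcd10, under normal or reduced oxygen. The set held 44 genes, chosen by name as known targets of interferon, of 55416 gene rows in the count table. Earlier results of these data were known when it was chosen, so counts over the set describe it and do not test it. All 44 had a row and all 44 were among the 22507 genes that passed the filter on low counts. Of them, 36 are classed here as type I members, largely classical targets of interferon alpha and beta. The other 8 are classed as gamma-inducible members, namely Gbp2, Gbp3, Gbp5, Gbp6, Gbp7, Irgm1, Igtp and Irf1, which respond strongly to interferon gamma. The classes are a convention, since many ISGs respond to both kinds of interferon.

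Interferons are secreted cytokines that put cells into an antiviral state. Type I interferons bind the receptor of Ifnar1 and Ifnar2, whose kinases Jak1 and Tyk2 act on Stat2, and Stat2 and Irf9 enter a complex that binds the interferon-stimulated response element (ISRE) in target promoters. Interferon gamma binds the receptor of Ifngr1 and Ifngr2, and acts through gamma-activated sequences (GAS), with Irf1 as an early target that itself binds ISRE-like elements. In brain, endothelial cells, microglia, astrocytes and infiltrating leukocytes can all express ISGs.

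The knockouts (KO) had the genotype Slco1c1-iCreERT2;Pdcd10fl/fl, in which a Cre recombinase that 4-hydroxytamoxifen activates is driven by the brain endothelial Slco1c1 promoter. The design text gives 50 µg of 4-hydroxytamoxifen, injected into the stomach on postnatal day 1. The controls (flox) were Pdcd10fl/fl littermates, so all 4 groups carried the floxed alleles. Cre animals that were not injected are also mentioned as controls there, and whether the flox mice were injected is not clear, so effects of the deletion, of Cre and of the injection cannot be told apart. Pdcd10, also called Ccm3, is a gene of cerebral cavernous malformation, a disease of enlarged, leaky brain capillaries. Normoxia was 21% oxygen and hypoxia was 12% oxygen for 7 days, and the age at collection is not given in the sources used here. Each group had 3 libraries, except KO in hypoxia, which had 4.

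Total counts were between 42090437 and 71216636 per library, so that the detection floor of 3 counts, the upper limit behind a count of 0, equals 0.0421 to 0.0713 CPM, the library-scaled count that is the unit below, for counting error only. Pdcd10 itself lay between 16.2 and 17.8 CPM in flox and between 16.2 and 18.1 CPM in KO in normoxia, and between 17.2 and 17.6 CPM in flox and between 14.7 and 17.0 CPM in KO in hypoxia, so whole tissue did not check the genotype labels. Neuron, astrocyte and endothelial markers were present in every group. All animals are labelled male, but 4 libraries held Xist and no Ddx3y, namely flox normoxia replicate 3, KO normoxia replicate 3 and KO hypoxia replicates 3 and 4. KO hypoxia replicate 1 stood apart, with 17400 CPM of summed erythroid markers against between 3409 and 4169 CPM in the other 3 libraries of its group. KO normoxia replicate 2 held 19.8 CPM of summed choroid plexus and ependymal markers, against 317 to 524 CPM in the other 12 libraries. Counts of calls without the libraries that held Xist and without KO hypoxia replicate 1 follow the counts by role and by list.

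Promoters were read for the motifs through which interferon signals are known to act, since the 44 genes were chosen by name and not by sequence. RefSeq promoters of build GRCm38.p6, the 250 bases before each gene's start, were at hand for 32 of the 44 genes. Gbp3, Ifit2, Irf1, Irf9 and Trim30a had more than 1 window, and a gene counted if any of its windows matched. The ISRE was searched as GAAANNGAAA and the GAS as TTCNNNGAA, on both strands. The sequences below are of 6 members with 1 or more matches that were higher in KO in hypoxia, 4 type I and 2 gamma-inducible, written 5′ to 3′ on the gene's strand. Capitals mark the ISRE and GAS matches, and an ISRE on the opposite strand appears as its reverse complement. The windows are chr7:104465194-104465443 (minus strand) for Trim30a, chr7:140955962-140956211 (minus) for Ifitm2 and chr5:120907526-120907775 (minus) for Oas1a. Those of the others are chr19:34550444-34550693 (plus) for Ifit2, chr3:142559794-142560043 (plus) for Gbp3 and chr3:142620413-142620662 (plus) for Gbp2.
Trim30a: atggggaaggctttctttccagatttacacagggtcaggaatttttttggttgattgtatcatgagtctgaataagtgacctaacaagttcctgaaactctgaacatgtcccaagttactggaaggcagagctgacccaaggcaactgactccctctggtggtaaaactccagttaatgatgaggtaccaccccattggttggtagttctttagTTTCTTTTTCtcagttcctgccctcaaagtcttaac
Ifitm2: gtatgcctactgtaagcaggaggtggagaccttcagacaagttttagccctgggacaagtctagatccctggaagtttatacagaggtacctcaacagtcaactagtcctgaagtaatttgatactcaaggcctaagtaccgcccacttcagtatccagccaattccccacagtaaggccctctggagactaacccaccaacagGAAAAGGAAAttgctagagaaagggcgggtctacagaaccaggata
Oas1a: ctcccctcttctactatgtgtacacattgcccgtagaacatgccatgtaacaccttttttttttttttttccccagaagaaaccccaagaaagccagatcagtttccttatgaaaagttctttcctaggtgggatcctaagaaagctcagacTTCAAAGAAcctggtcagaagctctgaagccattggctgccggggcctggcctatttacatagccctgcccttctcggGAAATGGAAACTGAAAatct
Ifit2: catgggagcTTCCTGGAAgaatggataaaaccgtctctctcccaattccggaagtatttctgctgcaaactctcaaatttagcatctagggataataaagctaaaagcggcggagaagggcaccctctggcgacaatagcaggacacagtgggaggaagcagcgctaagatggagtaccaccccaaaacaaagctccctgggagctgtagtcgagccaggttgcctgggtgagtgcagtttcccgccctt
Gbp3: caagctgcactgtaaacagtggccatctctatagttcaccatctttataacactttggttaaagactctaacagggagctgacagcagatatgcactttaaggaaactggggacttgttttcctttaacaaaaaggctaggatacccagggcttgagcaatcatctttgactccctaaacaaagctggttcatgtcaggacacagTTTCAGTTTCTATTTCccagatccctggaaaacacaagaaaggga
Gbp2: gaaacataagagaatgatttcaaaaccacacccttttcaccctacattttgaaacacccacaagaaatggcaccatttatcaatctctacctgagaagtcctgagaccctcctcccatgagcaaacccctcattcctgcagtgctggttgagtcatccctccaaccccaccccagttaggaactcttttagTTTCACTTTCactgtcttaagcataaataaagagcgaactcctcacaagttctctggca
Trim30a, Ifitm2 and Gbp2 each held 1 ISRE. Oas1a and Gbp3 each held 2 ISRE matches that overlap each other, and Oas1a held 1 GAS besides. Ifit2 held 1 GAS and no ISRE in this window, although it is a classical type I target. The other windows of Trim30a, Ifit2 and Gbp3 held neither motif.

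Over the members, 16 of 32 genes (50%) held an ISRE in any window, against 936 of the 27025 genes in the table (3.46%). A GAS was found in 8 of 32 (25%), against 8.13% of all genes, and either motif in 19 of 32 (59.4%), against 11.1%. By class, 10 of 25 type I members (40%) and 6 of 7 gamma-inducible members (85.7%) held an ISRE. The only gamma-inducible member without one in any window was Irf1, which held a GAS in 1 window. Of the 27 members with a promoter that were higher in KO in hypoxia, 14 held an ISRE, and of the 5 that were not called there, 2 did (Ifit3b and Stat2). These are matches of letters within 1 window and describe neither binding nor a cause.

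Members differed widely in level. On the deposited RPKM scale, which is per length of the gene, the mean over the flox normoxia libraries ran from 0.0335 for Zbp1 to 43.8 for Ly6e. Ly6e, a membrane-anchored protein, Ifi27 at 10.4 and Ifitm3 at 7.65 RPKM were the most abundant. The median member stood at 0.791 RPKM in flox normoxia and 0.752 in flox hypoxia, against 1.24 in KO normoxia and 1.54 in KO hypoxia. Members below 1 RPKM numbered 26 of 44 in flox normoxia and 25 in flox hypoxia, but 17 in KO normoxia and 14 in KO hypoxia. Ly6e led in every group.

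**Figure D1:**
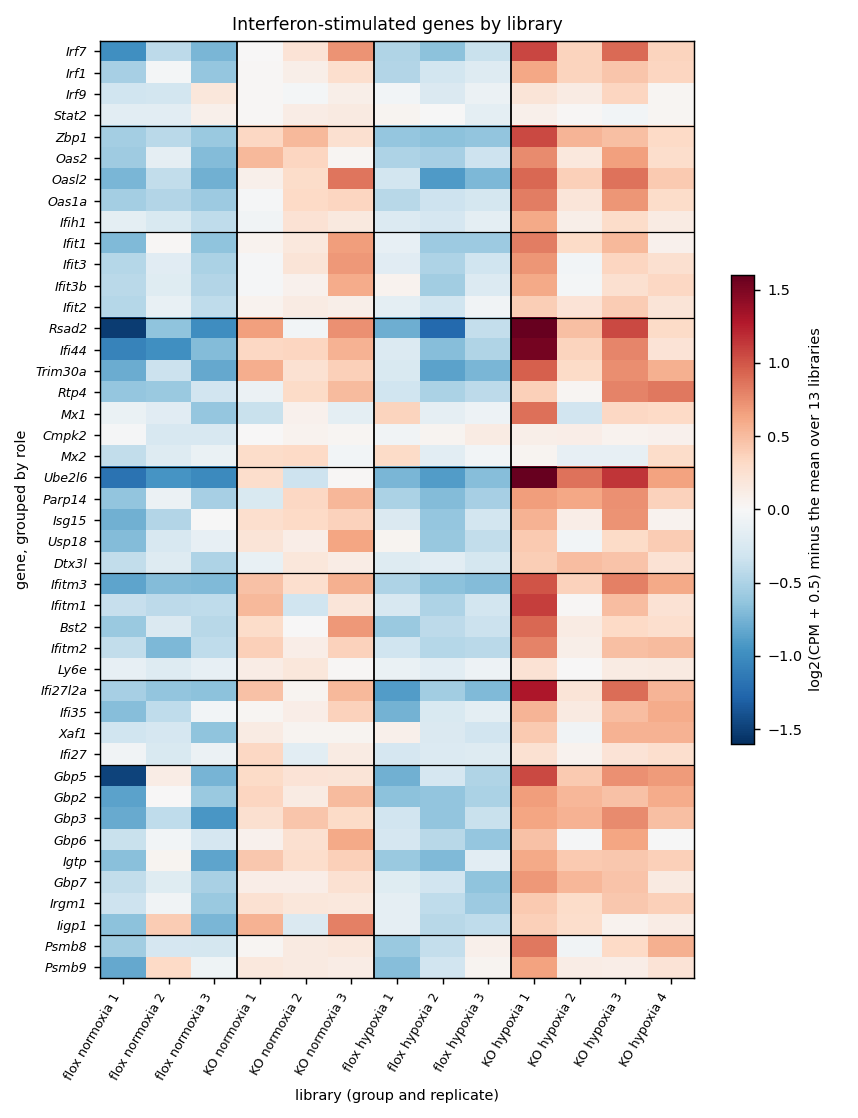
Level of each of the 44 members in each of the 13 libraries, as log2(CPM + 0.5) minus the member's mean over all 13 libraries, with libraries in columns by group and members in rows by role. Values beyond the colour scale take its end colour. The KO columns are higher than the flox columns over nearly all rows, in normoxia and in hypoxia, and KO hypoxia replicate 1 is the highest of its group for 30 of 44 members.

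Loss of Pdcd10 came with higher ISGs under both oxygen conditions. In normoxia, 17 of the 44 members were higher in KO than in flox at an adjusted p below 0.05 (edgeR's quasi-likelihood test, Benjamini-Hochberg over all 22507 genes), and none was lower. The same test called 1.96% of all genes higher and 0.369% lower. All 44 log2 fold changes were above 0, with a median of 0.80, against a median of -0.004 over all genes tested. In hypoxia 35 of 44 were higher and none was lower, where 6.78% of all genes were called higher and 2.28% lower. Of the 44 log2 fold changes there, 43 were above 0, with a median of 1.02, against -0.009 over all genes. All 17 members called in normoxia were also called in hypoxia, where they made up 48.6% of the 35, and 9 members were called in neither. The 2 comparisons share no library. Scaling without a composition factor left both counts at 17 and 35, while the share of higher genes among all calls in hypoxia went from 74.8% to 87.8%. In bulk tissue, fewer cells of a type and less RNA per cell cannot be told apart.

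The libraries themselves were mostly separate. Every KO library was above every flox library for 37 of 44 members in normoxia, against 10.5% of all genes tested, and for 36 of 44 in hypoxia, against 11.5%. No member had every KO library below every flox library. The normoxia calls rested on small margins. Among flox normoxia libraries, 6 members were called when replicate 1 was left out, Cmpk2 among them, which was not called with all libraries, and 9 when replicate 3 was. Among KO normoxia libraries, 8 were called when replicate 3 was left out and 11 when replicate 2 was. When the 4 libraries that held Xist were left out, 6 were called, of which Isg15 was not called with all libraries. That fit keeps only replicates 1 and 2 of each normoxia group, so fewer libraries carry the comparison. With all libraries kept and a term for those holding Xist, 18 were called. When KO hypoxia replicate 1 was left out, which leaves the normoxia libraries as they are but changes the estimated spread, 23 were called. Called in each of the 13 fits that left out 1 library were 4 members, Gbp3, Ifitm3, Trim30a and Zbp1. Of these, Zbp1 passed the filter on low counts only through its KO libraries. In hypoxia 23 of the 35 were called in each. Without KO hypoxia replicate 1, 29 members were called in hypoxia, with a median log2 fold change of 0.85. There 28 were called without the libraries holding Xist and 30 with a term for them. Calls over all genes, higher or lower, moved as well. In normoxia they went from 524 to 311 without the libraries holding Xist, and to between 250 and 727 without 1 library. In hypoxia they went from 2039 to 1401, and to between 1151 and 2490. The counts by role, class and list below are to be read beside these. Ifit1, Ifit3, Ifitm1, Isg15, Psmb8 and Xaf1 lost their calls without KO hypoxia replicate 1, at edgeR adjusted p between 0.0526 (Isg15) and 0.084 (Psmb8).

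**Figure D2:**
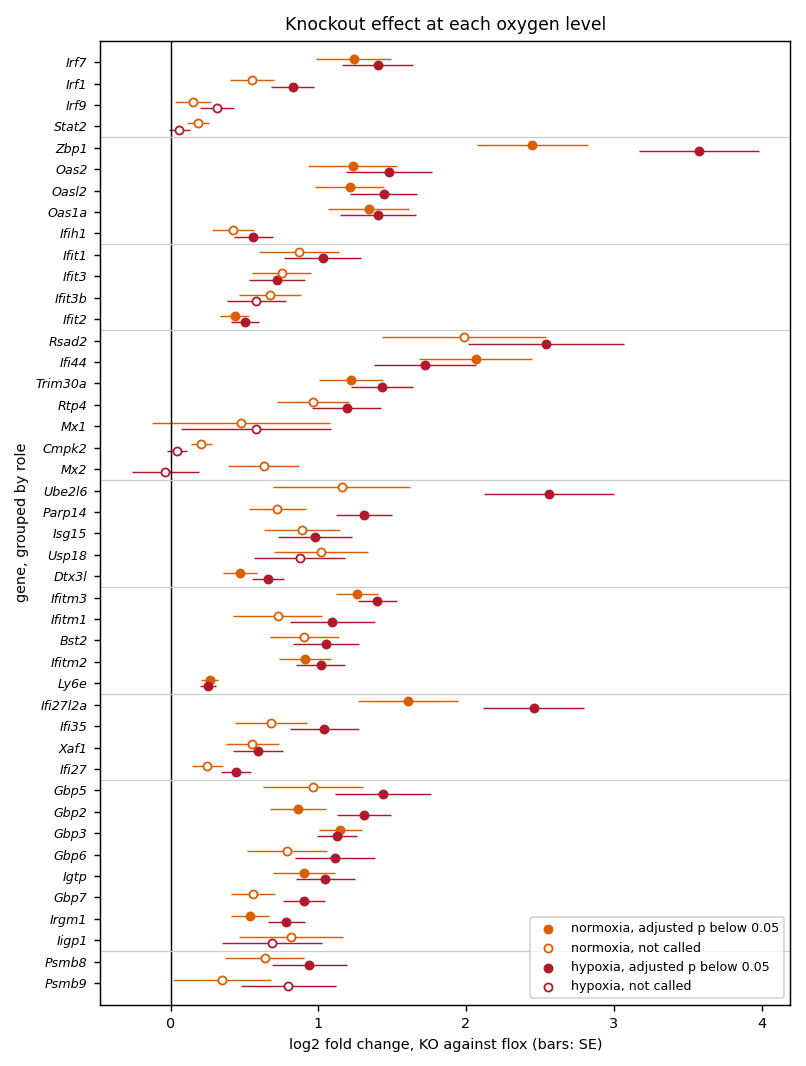
Log2 fold change of KO against flox for each of the 44 members in normoxia and in hypoxia, with bars of 1 standard error and filled points for an adjusted p below 0.05 (edgeR). Points lie right of 0 for 44 of 44 members in normoxia and 43 of 44 in hypoxia, with Mx2 at -0.04 in hypoxia the exception.

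Among nucleic acid sensors and 2′-5′-oligoadenylate synthetases, 4 of 5 members were higher in KO in normoxia and 5 of 5 in hypoxia. Zbp1 (ENSMUSG00000027514), a sensor of Z-form nucleic acids that can trigger necroptosis, gave the largest fold change of the members. It measured 0.108, 0.159 and 0.0898 CPM in flox normoxia and 0.614, 0.770 and 0.565 CPM in KO normoxia. In hypoxia it measured 0.0772, 0.0643 and 0.0717 CPM in flox and 1.34, 0.793, 0.740 and 0.605 CPM in KO. Every KO library was well above every flox library, and the flox values lay near the floor of 3 counts. With 3 to 9 counts per flox library, Zbp1 passed the filter on low counts only through its KO libraries. The log2 fold change was 2.45 ± 0.38 (SE, edgeR adjusted p = 0.0024) in normoxia and 3.58 ± 0.41 (edgeR adjusted p = 5.9e-05) in hypoxia.

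Oasl2 (ENSMUSG00000029561), a relative of the oligoadenylate synthetases, measured 2.32, 3.05 and 2.25 CPM in flox normoxia, 4.47, 5.22 and 7.96 CPM in KO normoxia, 3.30, 1.99 and 2.34 CPM in flox hypoxia, and 8.37, 5.60, 8.03 and 5.74 CPM in KO hypoxia. All KO libraries were above all flox libraries, by 1.21 ± 0.23 in log2 fold change in normoxia (edgeR adjusted p = 0.011) and 1.44 ± 0.23 in hypoxia (edgeR adjusted p = 0.00072). Oas1a and Oas2, which make the messenger that activates RNase L, were higher by 1.34 and 1.23 in log2 in normoxia and by 1.41 and 1.48 in hypoxia. Oas1a shares 57.6% of its 50-base stretches with its copy Oas1g, so the counting could split reads between them. Ifih1 (Mda5), a sensor of long double-stranded RNA, had a log2 fold change of 0.42 in normoxia (adjusted p = 0.16) and was higher by 0.56 in hypoxia.

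The membrane proteins Ifitm1, Ifitm2, Ifitm3, Bst2 and Ly6e gave 3 of 5 members higher in normoxia and 5 of 5 in hypoxia. Ifitm3 (ENSMUSG00000025492), which blocks the fusion of viruses with endosomes, had the smallest adjusted p of the members in both comparisons. It measured 4.85, 5.42 and 5.39 CPM in flox normoxia and 12.8, 11.1 and 13.8 CPM in KO normoxia. In hypoxia it measured 6.29, 5.59 and 5.42 CPM in flox and 18.7, 11.9, 16.3 and 14.1 CPM in KO. The flox libraries stayed together in both oxygen conditions and every KO library lay far above them. The log2 fold change was 1.26 ± 0.14 in normoxia (edgeR adjusted p = 0.00017) and 1.40 ± 0.13 in hypoxia (edgeR adjusted p = 1.5e-05), or 2.41-fold and 2.64-fold.

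Ifitm2, a near relative, was higher by 0.91 in log2 in normoxia and 1.02 in hypoxia, and shares 48.5% of its 50-base stretches with other gene models. Bst2 (tetherin), which holds budding virions at the cell surface, had a log2 fold change of 0.90 in normoxia (adjusted p = 0.056) and was higher by 1.05 in hypoxia. Ly6e, the most abundant member, showed one of the smallest called differences. Its mean was 167 ± 4.78 CPM (SD, n = 3) in flox normoxia and 200 ± 11.6 CPM (n = 3) in KO normoxia, and its log2 fold change was 0.26 in normoxia and 0.25 in hypoxia.

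**Figure D3:**
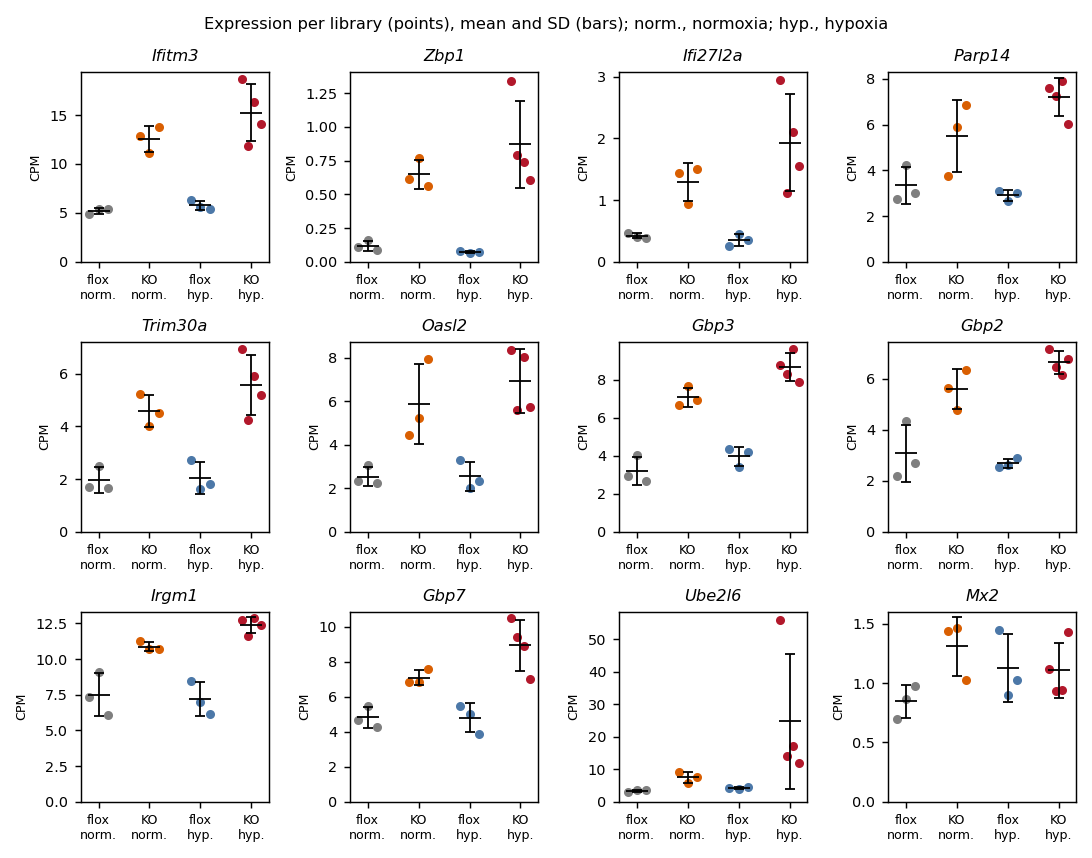
CPM of 12 members in each library by group, on linear axes that start at 0, with 1 panel per member, points for libraries and bars for the group's mean and SD. The KO points lie above the flox points in both oxygen conditions for Ifitm3, Zbp1 and Gbp3, while for Mx2 they mix in hypoxia, and 1 KO hypoxia library stands apart for Ube2l6.

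The GTPases of cell-autonomous defence (Gbp2, Gbp3, Gbp5, Gbp6, Gbp7, Irgm1, Igtp and Iigp1) attack the membranes around intracellular pathogens. Of these 8, 4 were higher in KO in normoxia and 7 in hypoxia. Gbp3 (ENSMUSG00000028268), whose promoter with overlapping ISRE matches is shown above, measured 2.94, 4.04 and 2.65 CPM in flox normoxia, 6.69, 7.65 and 6.93 CPM in KO normoxia, 4.34, 3.39 and 4.18 CPM in flox hypoxia, and 8.80, 8.32, 9.64 and 7.89 CPM in KO hypoxia. Every KO library exceeded every flox library of either oxygen condition. The log2 fold change was nearly equal in both, at 1.15 ± 0.14 (edgeR adjusted p = 0.00046) and 1.13 ± 0.14 (edgeR adjusted p = 9.2e-05).

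Gbp2 (ENSMUSG00000028270) measured 2.17, 4.34 and 2.69 CPM in flox normoxia, 5.63, 4.78 and 6.34 CPM in KO normoxia, 2.55, 2.62 and 2.89 CPM in flox hypoxia, and 7.18, 6.45, 6.15 and 6.79 CPM in KO hypoxia. Flox normoxia replicate 2 came close to the lowest KO normoxia library, and in hypoxia the gap was wide. The log2 fold change was 0.86 ± 0.19 (edgeR adjusted p = 0.023) in normoxia and 1.31 ± 0.18 (edgeR adjusted p = 0.00029) in hypoxia. Flox normoxia replicate 2 was high for the gamma-inducible class as a whole, and for 28 of the 44 members it was the highest flox normoxia library.

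Irgm1 (ENSMUSG00000046879), a regulator of the other immunity-related GTPases and of autophagy, measured 7.36, 9.07 and 6.05 CPM in flox normoxia, 11.2, 10.7 and 10.7 CPM in KO normoxia, 8.45, 6.99 and 6.12 CPM in flox hypoxia, and 12.7, 11.6, 12.9 and 12.4 CPM in KO hypoxia. The groups did not overlap, and the log2 fold change was 0.54 ± 0.13 (edgeR adjusted p = 0.036) in normoxia and 0.78 ± 0.12 (edgeR adjusted p = 0.00071) in hypoxia. Gbp7 (ENSMUSG00000040253) measured 4.70, 5.49 and 4.28 CPM in flox normoxia and 6.84, 6.87 and 7.58 CPM in KO normoxia. In hypoxia it measured 5.48, 5.04 and 3.87 CPM in flox and 10.5, 9.41, 8.88 and 7.04 CPM in KO. Its libraries did not overlap in either condition, but the normoxia difference of 0.56 ± 0.15 did not pass (edgeR adjusted p = 0.069), while that of 0.90 ± 0.14 in hypoxia did (edgeR adjusted p = 0.00074).

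Igtp (Irgm3) was higher in both conditions, by 0.90 and 1.05 in log2. Gbp5, a promoter of inflammasome assembly, and Gbp6 were higher in hypoxia, by 1.44 and 1.11, and had log2 fold changes of 0.96 (adjusted p = 0.2) and 0.79 (adjusted p = 0.19) in normoxia. Gbp6 shares 70.7% of its 50-base stretches with other gene models, and Igtp 11.8%, nearly all with Irgm2. Iigp1 (Irga6) was called in neither condition, with log2 fold changes of 0.82 ± 0.35 and 0.69 ± 0.34.

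Of the antiviral effectors Mx1, Mx2, Rsad2, Cmpk2, Ifi44, Trim30a and Rtp4, 2 of 7 were higher in KO in normoxia and 4 of 7 in hypoxia. Trim30a (ENSMUSG00000030921), an E3 ligase that limits inflammatory signalling, measured 1.71, 2.52 and 1.68 CPM in flox normoxia and 5.23, 4.03 and 4.50 CPM in KO normoxia. In hypoxia it measured 2.74, 1.61 and 1.82 CPM in flox and 6.94, 4.24, 5.91 and 5.20 CPM in KO. The KO libraries lay above all flox libraries in both conditions, with log2 fold changes of 1.22 ± 0.22 (edgeR adjusted p = 0.0066) and 1.43 ± 0.21 (edgeR adjusted p = 0.00044).

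Rsad2 (viperin), which makes a chain-terminating nucleotide, measured 0.395, 1.13 and 0.778 CPM in flox normoxia, 3.54, 1.98 and 3.75 CPM in KO normoxia, 0.984, 0.579 and 1.46 CPM in flox hypoxia, and 12.7, 3.06, 4.80 and 2.67 CPM in KO hypoxia. KO hypoxia replicate 1 was far above the other KO libraries, yet no KO library overlapped with flox. The log2 fold change was 1.99 ± 0.56 in normoxia (edgeR adjusted p = 0.086) and 2.54 ± 0.53 in hypoxia (edgeR adjusted p = 0.0059). Without KO hypoxia replicate 1 the normoxia value for Rsad2 passed, at 1.99 ± 0.37 (edgeR adjusted p = 0.00512), and the hypoxia value was 1.82 ± 0.36 (edgeR adjusted p = 0.00502). Cmpk2, a mitochondrial nucleotide kinase and the neighbour of Rsad2 in the genome, was called in neither condition, with log2 fold changes of 0.21 and 0.04 at a mean of 21.8 ± 2.22 CPM in flox normoxia (SD, n = 3).

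Ifi44 was higher by 2.07 in log2 in normoxia and 1.72 in hypoxia, and Rtp4 by 1.19 in hypoxia. The Mx proteins, dynamin-like GTPases that trap viral nucleocapsids, were called in neither condition. Mx1 was scarce, with 0.227 ± 0.133 CPM in flox normoxia and 0.638 ± 0.372 CPM in KO hypoxia (SD, n = 3 and 4). Mx2 measured 0.700, 0.868 and 0.973 CPM in flox normoxia, 1.44, 1.47 and 1.03 CPM in KO normoxia, 1.45, 0.900 and 1.03 CPM in flox hypoxia, and 1.12, 0.937, 0.943 and 1.43 CPM in KO hypoxia. Its KO libraries were above its flox libraries in normoxia and mixed with them in hypoxia, at log2 fold changes of 0.63 ± 0.24 (edgeR adjusted p = 0.25) and -0.04 ± 0.23 (edgeR adjusted p = 0.95). Mx2 was the only member below 0 in either comparison, and its sign in hypoxia turned when flox hypoxia replicate 1, KO hypoxia replicate 2 or KO hypoxia replicate 3 was left out.

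The ISG15 system and its partners gave 1 of 5 members higher in normoxia (Dtx3l) and 4 of 5 in hypoxia. Isg15 is a ubiquitin-like modifier that Ube2l6 conjugates to target proteins and Usp18 removes. Ube2l6 (ENSMUSG00000027078) measured 3.02, 3.65 and 3.44 CPM in flox normoxia, 9.23, 5.87 and 7.62 CPM in KO normoxia, 4.32, 3.82 and 4.49 CPM in flox hypoxia, and 55.8, 14.1, 17.2 and 12.0 CPM in KO hypoxia. KO hypoxia replicate 1 stood far above the other 3 libraries of its group, and all KO libraries were above all flox libraries. The log2 fold change was 1.16 ± 0.46 in normoxia (edgeR adjusted p = 0.27) and 2.56 ± 0.44 in hypoxia (edgeR adjusted p = 0.0015). Without KO hypoxia replicate 1 it was 1.16 ± 0.16 in normoxia, which then passed (edgeR adjusted p = 5e-04), and 1.78 ± 0.16 in hypoxia.

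Parp14 (ENSMUSG00000034422), a mono-ADP-ribosyltransferase, measured 2.76, 4.25 and 3.01 CPM in flox normoxia and 3.77, 5.87 and 6.87 CPM in KO normoxia, where the groups overlapped. In hypoxia it measured 3.09, 2.64 and 3.01 CPM in flox and 7.60, 7.26, 7.91 and 6.03 CPM in KO, with a wide gap. Its log2 fold change was 0.72 ± 0.20 in normoxia (edgeR adjusted p = 0.074) and 1.31 ± 0.19 in hypoxia (edgeR adjusted p = 0.00041). Dtx3l, an E3 ligase that partners Parp9, was higher by 0.47 and 0.66. Isg15 had a log2 fold change of 0.89 in normoxia (adjusted p = 0.1) and was higher by 0.98 in hypoxia. Usp18, which also restrains signalling at the type I receptor, was called in neither, at 1.02 ± 0.32 and 0.87 ± 0.31.

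The IFIT proteins, which recognise foreign RNA ends and block translation, gave 1 of 4 members higher in normoxia (Ifit2) and 3 of 4 in hypoxia. Ifit2 was higher by 0.43 and 0.50 in log2, and Ifit1 by 1.03 in hypoxia. Ifit3 was higher by 0.72 in hypoxia, but shares 51.2% of its 50-base stretches with Ifit3b, which was not called (0.58, adjusted p = 0.082), so their split is uncertain. Of Ifi27, Ifi27l2a, Ifi35 and Xaf1, 1 was higher in normoxia and 4 of 4 in hypoxia. Ifi27l2a (ENSMUSG00000079017) measured 0.467, 0.407 and 0.389 CPM in flox normoxia, 1.44, 0.941 and 1.51 CPM in KO normoxia, 0.251, 0.450 and 0.358 CPM in flox hypoxia, and 2.94, 1.12, 2.10 and 1.55 CPM in KO hypoxia. No KO library reached down to a flox library, and the log2 fold change was 1.61 ± 0.34 (edgeR adjusted p = 0.019) in normoxia and 2.46 ± 0.34 (edgeR adjusted p = 0.00026) in hypoxia. Its abundant relative Ifi27 was higher by 0.44 in hypoxia.

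Among the transcription factors, 1 of 4 was higher in normoxia and 2 of 4 in hypoxia. Irf7, the factor that amplifies type I interferon production, was higher by 1.24 in log2 in normoxia and 1.40 in hypoxia. Irf1 was higher by 0.83 in hypoxia and had a log2 fold change of 0.55 in normoxia (adjusted p = 0.078). Stat2 and Irf9, the subunits particular to the ISRE-binding complex, were called in neither condition. Stat2 stood at 30.4 ± 3.12 CPM in flox normoxia and 32.7 ± 1.25 CPM in KO hypoxia (SD, n = 3 and 4), with log2 fold changes of 0.19 ± 0.07 and 0.06 ± 0.07. Irf9 stood at 11.8 ± 2.54 and 14.7 ± 1.41 CPM, with 0.15 ± 0.12 and 0.31 ± 0.12. Of the immunoproteasome subunits, which tune peptides for class I presentation, Psmb8 was higher in hypoxia by 0.94 and Psmb9 was not called (0.80 ± 0.32, adjusted p = 0.15).

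Several of these counts by role moved when libraries were left out, as did the calls over all genes given above. Without KO hypoxia replicate 1, hypoxia calls were 1 of 4 for IFIT members, 0 of 2 for the immunoproteasome, 4 of 5 for membrane proteins and 3 of 5 for the ISG15 system, while those of sensors and synthetases (5 of 5), GTPases (7 of 8) and effectors (4 of 7) were as before. Normoxia calls were then 2 of 4 for IFIT members, 4 of 7 for effectors and 2 of 5 for the ISG15 system. Without the libraries holding Xist, normoxia calls were 1 of 5 for sensors and synthetases, 1 of 8 for GTPases, 2 of 5 for membrane proteins, 1 of 7 for effectors and 0 of 4 for each of IFIT, transcription factors and the Ifi27 group. Hypoxia calls were then 1 of 4 for the Ifi27 group, 0 of 2 for the immunoproteasome and 5 of 8 for GTPases.

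Members of both classes were higher in KO. In normoxia 13 of 36 type I and 4 of 8 gamma-inducible members were higher in KO, with median log2 fold changes of 0.78 and 0.82. In hypoxia 27 of 36 and 8 of 8 were higher, with medians of 1.00 and 1.08. Every KO library exceeded every flox library for 8 of 8 gamma-inducible members in both conditions, and for 29 of 36 type I members in normoxia and 28 of 36 in hypoxia. Without the libraries holding Xist, 5 type I and 1 gamma-inducible members were called in normoxia, and 22 and 6 in hypoxia. Without KO hypoxia replicate 1, 18 type I and 5 gamma-inducible members were called in normoxia. In hypoxia 21 and 8 were then called, and the medians lay further apart, at 0.815 and 1.014.

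Class means over members, as the mean of log2(CPM + 0.5), gave the same picture by library. The type I mean was 1.61 ± 0.12 (SD, n = 3) in flox normoxia, 2.27 ± 0.11 (n = 3) in KO normoxia, 1.69 ± 0.09 (n = 3) in flox hypoxia and 2.49 ± 0.25 (n = 4) in KO hypoxia. The gamma-inducible mean was 1.84 ± 0.34, 2.56 ± 0.07, 1.85 ± 0.02 and 2.79 ± 0.13 in the same order. Within the flox normoxia group, replicate 2 stood at 2.23 for the gamma-inducible mean against 1.62 and 1.66 in replicates 1 and 3. The gamma-inducible mean less the type I mean ran from 0.05 to 0.50 in flox normoxia, from 0.24 to 0.33 in KO normoxia, from 0.12 to 0.25 in flox hypoxia and from 0.13 to 0.45 in KO hypoxia. These ranges overlapped between KO and flox in both conditions. In hypoxia the overlap came from KO hypoxia replicate 1 alone, at 0.126, since the other 3 KO libraries, at 0.454, 0.304 and 0.300, lay above the flox libraries at 0.115, 0.251 and 0.124. No test was run on this difference.

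**Figure D4:**
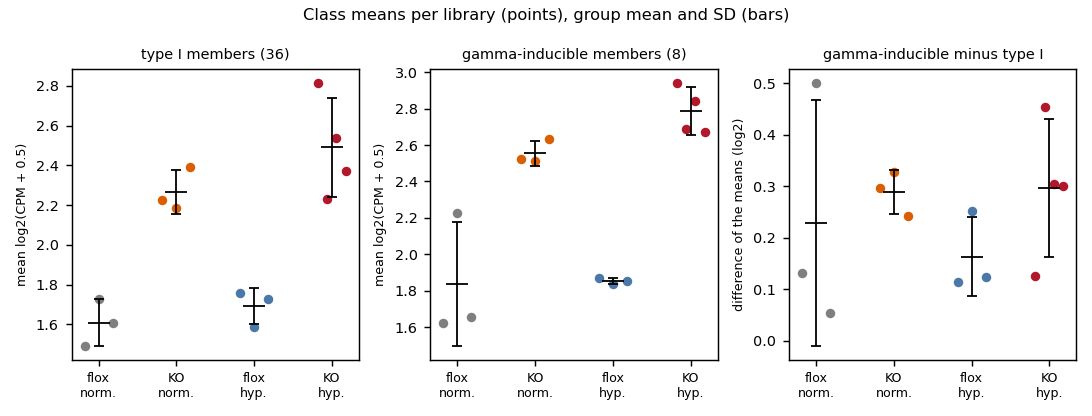
Mean log2(CPM + 0.5) over the 36 type I members, over the 8 gamma-inducible members, and the difference of these means, for each library by group. Points are libraries and bars the group mean and SD. KO libraries lie above flox libraries for both classes, and the differences between the classes overlap over all 4 groups.

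In the main edgeR fit, with all 13 libraries, the filter on low counts and no covariate, no member was called for hypoxia. In flox mice 0 of 44 were called higher or lower in hypoxia against normoxia (edgeR), where 0.0222% of all genes were called higher and 0% lower. Their median log2 fold change was 0.06, and 1 member, Cmpk2, reached an unadjusted p below 0.05. DESeq2 and limma called 0 there as well. In KO mice 0 of 44 were called (edgeR), against 0.622% of all genes higher and 0.275% lower, with a median of 0.25 and 9 members at an unadjusted p below 0.05. Ube2l6 came closest, at 1.72 ± 0.41 in log2 (edgeR adjusted p = 0.062). DESeq2 called this 1 member (adjusted p = 0.0198) and limma none. Without KO hypoxia replicate 1 it was smaller but called, at 0.94 ± 0.15 (edgeR adjusted p = 0.0101).

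The difference between the KO effect in hypoxia and that in normoxia was tested directly. It was called for 0 of 44 members and for 0% of all genes by edgeR, with a median over the members of 0.16 in log2 and 2 members, Ube2l6 and Parp14, at an unadjusted p below 0.05. DESeq2 and limma also called 0 members. The larger number of members called in hypoxia, where KO had 4 libraries against 3, is thus not shown to be a larger effect of the knockout. The values were 1.40 ± 0.63 for Ube2l6 (edgeR adjusted p = 0.68), which was 0.62 ± 0.23 without KO hypoxia replicate 1 (edgeR adjusted p = 0.688). They were 0.59 ± 0.27 for Parp14 (edgeR adjusted p = 0.69) and -0.67 ± 0.33 for Mx2 (edgeR adjusted p = 0.69).

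KO hypoxia replicate 1 was the highest of the 4 KO hypoxia libraries for 30 of 44 members, where it was the highest for 28.5% of all genes tested. Its summed erythroid markers, with globins and Alas2, were the highest of all libraries. The part of this in the members' values was not tested.

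Upstream of the members, interferon transcripts were nearly absent. The 21 interferon genes listed had 35 counts in all 13 libraries together, of 712870423 counts, and none passed the filter. Ifnb1, the gene of interferon beta, had 0 counts in every library, and 14 of the 21 had none. Ifng had 4 counts in all, 2 in flox normoxia and 2 in KO hypoxia. Ifnz led with 20 counts, of which 1 was in flox normoxia, 6 in KO normoxia, 3 in flox hypoxia and 10 in KO hypoxia. Whether interferon differed between the groups was not detectable at this depth.

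In normoxia 0 of 6 receptor genes were higher in KO (edgeR) and in hypoxia 2 of 6, Ifngr1 by 0.55 ± 0.09 in log2 (edgeR adjusted p = 0.00085) and Ifnar2 by 0.29 ± 0.08 (edgeR adjusted p = 0.039). Ifnar1 had log2 fold changes of 0.15 and 0.13 and Ifngr2 of 0.03 in both conditions. In hypoxia 1 of 6 receptors was called without KO hypoxia replicate 1, and also 1 without the libraries holding Xist. The kinases Jak1, Jak2 and Tyk2 were called in neither condition.

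Sensors and relays of interferon induction gave 2 of 15 genes higher in normoxia and 7 of 15 in hypoxia, with none lower. Without KO hypoxia replicate 1 the hypoxia count was 3 of 15, with the median log2 fold change at 0.35 against 0.53, and without the libraries holding Xist the counts were 0 and 4. Rigi (RIG-I), an RNA sensor and itself interferon-inducible, was higher by 0.71 ± 0.14 in normoxia (edgeR adjusted p = 0.011) and 0.90 ± 0.13 in hypoxia (edgeR adjusted p = 0.00041). Dhx58 (LGP2) and the kinase Ikbke were higher in hypoxia by 1.08 and 1.02, and Sting1 by 0.61. Cgas, Mavs, Tbk1 and Irf3 were called in neither condition. Of 7 tested negative regulators, none was higher in normoxia and 1, the phosphatase Ptpn6, in hypoxia by 0.69. The counts became 1 in normoxia and 0 in hypoxia without KO hypoxia replicate 1. Socs1, a classical feedback inhibitor, had log2 fold changes of 0.34 ± 0.23 and 0.11 ± 0.22.

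A further list of 60 tested ISGs outside the 44 gave 9 higher in KO in normoxia and 36 in hypoxia, and none lower. Their median log2 fold changes were 0.70 and 1.16. Of the 59 tested without KO hypoxia replicate 1, 12 and 24 were called, and of the 59 tested without the libraries holding Xist, 3 and 27. Gbp9 was higher by 1.05 ± 0.13 (edgeR adjusted p = 4e-04) and 1.29 ± 0.12 (edgeR adjusted p = 1.5e-05), in the range of Gbp3. Cxcl10, a chemokine that draws T cells, was higher by 2.30 ± 0.47 (edgeR adjusted p = 0.015) and 2.72 ± 0.44 (edgeR adjusted p = 0.00099). Tap1, Tap2 and Tapbp of the peptide-loading machinery were higher in hypoxia, by 1.23, 0.67 and 0.43. Adar, Pml and Parp11 were called in neither condition.

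**Figure D5:**
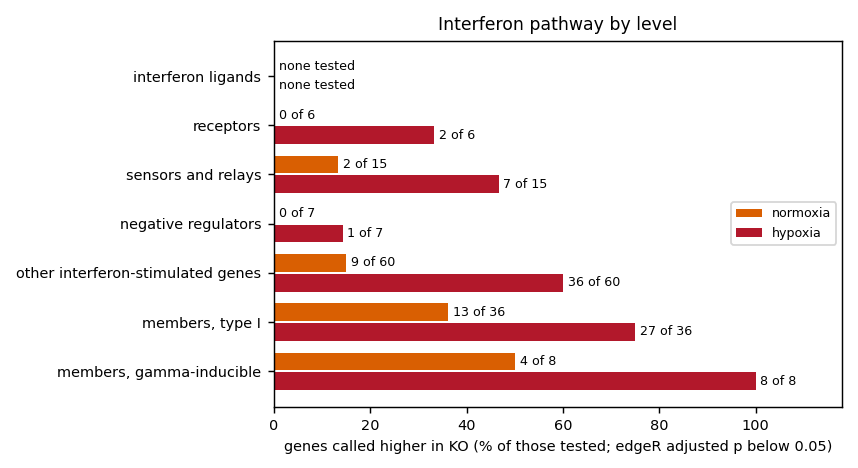
Share of tested genes called higher in KO against flox (edgeR adjusted p below 0.05) at each level of the interferon pathway, in percent on an axis that starts at 0, with bars for normoxia and hypoxia and the count beside each bar. No interferon gene could be tested, 2 of 6 receptors were called in hypoxia, and the members reach 27 of 36 for type I and 8 of 8 for gamma-inducible.

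Markers of several cell types were also higher in KO. Endothelial markers were higher in KO for 15 of 16 genes in normoxia and 16 of 16 in hypoxia, with median log2 fold changes of 1.03 and 1.08, close in size to the members' 0.80 and 1.02. Their summed level ran from 250 to 285 CPM in flox normoxia, from 509 to 574 CPM in KO normoxia, from 341 to 376 CPM in flox hypoxia and from 660 to 1075 CPM in KO hypoxia, where replicate 1 gave the 1075 CPM and the next library 769 CPM. Without that library 16 of 16 were called in both conditions, and the hypoxia median was 0.95. With all libraries, hypoxia against normoxia gave endothelial medians of 0.435 in flox (1 of 16 called higher) and 0.566 in KO (8 of 16). The members' medians there were 0.06 and 0.25, with 0 of 44 called in each (edgeR). Microglial markers were higher for 0 of 12 genes in normoxia and 10 of 12 in hypoxia, with medians of 0.25 and 0.46. Of the 12, 5 were called in normoxia and 8 in hypoxia without KO hypoxia replicate 1, with medians of 0.25 and 0.39. They summed to between 368 and 396 CPM in flox normoxia, 440 and 465 CPM in KO normoxia, 382 and 400 CPM in flox hypoxia, and 475 and 648 CPM in KO hypoxia. The part of these markers in the members' values was not tested.

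Pericyte markers were higher for 5 of 8 genes in normoxia and 7 of 8 in hypoxia, and astrocyte markers for 3 of 8 and 5 of 8. Erythroid markers were higher for 5 of 8 and 8 of 8. Of the immune markers, border-associated macrophage genes gave 1 of 6 and 5 of 6, monocyte and neutrophil genes 0 of 8 and 4 of 8, dendritic cell genes 0 of 6 and 2 of 6, and B and plasma cell genes 2 of 7 and 2 of 7. With KO hypoxia replicate 1 left out, these became 2 of 6 and 2 of 6 for border-associated macrophages, 2 of 8 and 1 of 8 for monocytes and neutrophils, and 3 of 7 and 1 of 7 for B and plasma cells. Without the libraries holding Xist, normoxia calls were 0 of 6 for border-associated macrophages, 0 of 7 for B and plasma cells, 2 of 8 for pericytes and 3 of 8 for erythroid genes, and hypoxia calls 1 of 6 for dendritic cells and 1 of 7 for B and plasma cells. T and NK cells are the main sources of interferon gamma. Their markers summed to between 7.65 and 12.0 CPM in flox normoxia, 9.92 and 11.7 CPM in KO normoxia, 10.5 and 14 CPM in flox hypoxia, and 10.7 and 12.8 CPM in KO hypoxia, ranges that overlapped. Abundant genes weigh most in such sums. The mean of log2(CPM + 0.5) over these markers did not overlap in hypoxia, at -0.471 to -0.359 in flox and -0.278 to -0.187 in KO. In normoxia it overlapped, at -0.51 to -0.333 in flox and -0.361 to -0.313 in KO. Only 6 of 15 could be tested, of which 0 were higher in normoxia and 2 in hypoxia, and no call was made on the 5 that could be tested without KO hypoxia replicate 1 or without the libraries holding Xist. The T cell receptor subunits Cd3e, Cd3d and Cd3g were among the 9 that did not pass the filter, with Cd3e at a mean of 0.0219 CPM in flox normoxia and 0.133 CPM in KO hypoxia. Neuronal markers gave 0 higher in either condition and 2 of 8 lower in hypoxia.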

How the data were processed

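For 13 mouse brain libraries, made from RNA with an integrity number above 8.0, the authors deposited raw gene counts and RPKM values. Per the submitters' processing notes, HISAT2, edgeR and the GRCm39 build were used. No source used here gives the annotation or the strand setting of the counting. Each deposited RPKM value is the count divided by the library total and by 1 length per gene (tested on the files), so they carry no composition factor.

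Groups and replicate numbers came from the sample titles. No label names an animal, so the spread behind each p-value is that between libraries, which may be technical in part. Flox normoxia, KO normoxia and KO hypoxia each held libraries with and without Xist, which come from different animals. Whether other libraries share an animal is not given. The tests used edgeR 4.0.16 (R 4.3.3). After filterByExpr over the 4 groups, 22507 genes were scaled by TMM and fitted with 1 mean per group over all 13 libraries (common dispersion 0.00967). Within each comparison, Benjamini-Hochberg adjustment ran over all genes, with a threshold of 0.05. Standard errors come from the F statistic. Named with values in every library were the 6 type I and 4 gamma-inducible members with the smallest p in hypoxia and the 3 with the smallest p for the difference between oxygen conditions. Of each pathway list, up to 3 called genes and 2 others were to be named by p, with Ifng, Ifnb1, Ifnar1 and Ifngr1. The value of 1 gene that meets this rule is not reported here. Chosen after their values were seen were the values of Rsad2 in every library and the names Ifnz, Jak1, Jak2, Tyk2, Sting1, Cgas, Mavs, Tbk1, Irf3, Socs1, Cxcl10, Tap1, Tap2, Tapbp, Adar and Pml. Protein sequences are not used here.

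The members, lists and rules were chosen with earlier results of these data known. Levels between genes were compared on RPKM only. Identifiers were given symbols for 52083 of 55416 rows, and the rows without held 0.346% of counts. Promoter windows are of GRCm38.p6, another build than the authors', and served for sequence only. Shared stretches of 50 bases were counted in GENCODE M21 transcripts. The edgeR test of KO against flox in normoxia was also run on simulated counts with the same dispersion for all genes. That run does not cover the other comparisons, DESeq2, limma or an outlying library. Alternatives were scaling by RLE or by totals alone, no filter or one of 1 CPM in 3 libraries, DESeq2 1.42.0, limma 3.58.1 on log2(RPKM + 1) or with 0.1 added, a replicate block, a term for or removal of the libraries with Xist, separate fits per comparison, and leaving out each library. Iigp1 was also moved to the gamma-inducible class, which changed no number of members called, since Iigp1 was called in neither condition. With it, however, the class was no longer called as a whole in hypoxia. Nor was every member then separate in normoxia, where the Iigp1 libraries overlapped.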

Additional observations from a re-analysis of the deposited data

Results flagged for a closer look

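Ube2l6, the ISG15-conjugating enzyme, was the only member of 44 whose highest or lowest library passed Dixon's critical value in the KO hypoxia group, the only group of 4. Psmb9 at 0.822 and Bst2 at 0.818 lay just under it. KO hypoxia replicate 1 held 55.8 CPM, against 14.1, 17.2 and 12.0 CPM in replicates 2, 3 and 4. Its gap to the nearest library was 0.881 of the group's range, above Dixon's critical value for 4 values. Chance alone gives about 1 such case in 20 genes. The cause was not tested. The same library had the highest erythroid marker sum, and 6.9% of the 50-base stretches of Ube2l6 lie antisense to another gene's transcripts.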

How the results depend on the processing

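Without a filter on low counts, normoxia gave 995 genes and 30 members called (23 type I, 7 gamma-inducible), with 158 genes for hypoxia in flox, 833 genes and 2 members for hypoxia in KO, and 55 genes for the difference between conditions. DESeq2 gave 874 genes and 27 members (21 type I) in normoxia, 67 genes in flox, 755 genes and 1 member in KO and 5 for the difference. limma on log2(RPKM + 1) gave 249 genes and 6 members (4 type I, 2 gamma-inducible) in normoxia, 2, 46 and 2 genes for the other comparisons, and smaller medians, of 0.328, 0.302 and 0.330 over all, type I and gamma-inducible members in normoxia and 0.458, 0.425 and 0.516 in hypoxia, since the pseudocount compresses low values. On log2(RPKM + 0.1) it gave 333 genes and 12 members (10 type I, 2 gamma-inducible) in normoxia and 2, 42 and 2 genes elsewhere. Without the libraries with Xist, normoxia gave 311 genes and 6 members (5 type I, 1 gamma-inducible, with a median of 0.602), and the others 66, 94 and 10 genes. Fits of only the libraries compared gave 16 members (14 type I, 2 gamma-inducible) in normoxia, and 19 genes for hypoxia in flox and 30 in KO. The knockout calls in hypoxia stayed within 1.5 times under each of these. Mx2 in hypoxia turned to 0.003 and 0.012 with limma, and to 0.194, 0.038 and 0.039 without flox hypoxia replicate 1, KO hypoxia replicate 2 and KO hypoxia replicate 3, in a range over left-out libraries of -0.176 to 0.194. Cmpk2 turned to -0.004 without flox hypoxia replicate 1 (range to 0.089), and Parp14 for hypoxia in flox to 0.011 without flox normoxia replicate 2 (range from -0.315). The causes of the other shifts were not tested.

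Leaving out 1 library in turn gave 250 to 727 genes and 6 to 23 members in normoxia (5 to 18 type I, 1 to 6 gamma-inducible), with medians of 0.651 to 0.912, 0.651 to 0.912 for type I and 0.627 to 1.063 for gamma-inducible members. In hypoxia it gave 1151 to 2490 genes and 26 to 36 members (19 to 28, 7 to 8), with medians of 0.846 to 1.098, 0.815 to 1.098 and 0.978 to 1.127. Hypoxia in flox gave 0 to 45 genes with member medians of -0.012 to 0.172, in KO 2 to 463 genes and 0 to 1 members with 0.152 to 0.326, and the difference 0 to 1 genes with 0.049 to 0.258. With the replicate block, 17 and 33 members were called for the knockout, 1 for hypoxia in KO, and 1 gene for the difference. Same-numbered libraries correlated between -0.061 and 0.264 in their deviations, above 0.1 in 5 of 18 pairs. The value of 0.264 was that of flox normoxia replicate 3 and KO hypoxia replicate 3, which both held Xist. These values do not settle whether the numbers pair the libraries. Depth leaves members near the floor, such as Zbp1 in flox, with wide errors.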
